A study of Caenorhabditis elegans with 3 samples.

Results

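Chromosome X carried 1704 of the 11533 peaks called for the GFP-tagged protein of rcat-1 (R02D3.7) in L4 larvae of Caenorhabditis elegans, and 36 of the 390 peaks that passed the authors' reproducibility threshold. The assay was chromatin immunoprecipitation followed by sequencing (ChIP-seq), in which DNA bound by a protein is pulled down with an antibody and sequenced, and a peak is a stretch where such DNA piles up. All 3 samples were biological replicates of 1 group: whole larvae of strain OP218, with males and females pooled, carrying the insertion wgIs218 for the tagged gene and the allele ed3 of unc-119 on chromosome III. The label of replicate 3 describes the tag as GFP-FLAG at the C-terminus. An untagged strain and the control alignment were not analysed here, so X was set against the 5 autosomes in the same lists.

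The members were chosen by chromosome name alone, without any measured value. Of the peaks that were not on X, 9803 pooled and 328 thresholded ones lay on autosomes and 26 lay on the mitochondrial genome, which entered no comparison. The pooled list was called on the 3 alignments together, and the 390 thresholded peaks were its strongest. The deposited signal of a peak, the strength given by the authors' peak caller, served to order and describe peaks; each list has its own scale, so a peak is set across replicates by its rank in each. Read depth is unknown from these lists, so a signal has no counting error of its own. The proportion of males, which have a lone X, is not given in the labels, and its part in the number of X peaks was not tested.

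In C. elegans, hermaphrodites have a pair of X chromosomes and males have a lone one. A condensin-containing dosage compensation complex, directed to X by SDC-2, binds both hermaphrodite X chromosomes and lowers their expression to the level of males. It is recruited at sites that hold a short motif known as MEX, for motif enriched on X, and spreads from there to active promoters. X is also known to hold few of the genes expressed throughout the germ line and many of the nuclear tRNA genes. The product of rcat-1 has a C2H2 zinc finger domain, a fold found in many DNA-binding proteins.

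The letters under the strongest X peaks are shown first, since the X peaks differed from the autosomal ones in which of them they held. An earlier analysis of these data had named CGTAAA and its longer form CGTAAATC at the summits, the highest points, of the thresholded peaks. Of the 36 thresholded X peaks, 5 held CGTAAATC at a distance of at most 50 bp from the summit. The lines give the occurrences at 4 of them with neighbouring bases, read 5′ to 3′ on the strand that carries the letters, which are in capitals. Each is named by the gene whose transcript start is nearest to the summit. The sequence is that of RefSeq for WBcel235, which is the build ce11 of the lists.
chup-1: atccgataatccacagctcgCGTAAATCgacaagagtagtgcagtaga
F11C7.8: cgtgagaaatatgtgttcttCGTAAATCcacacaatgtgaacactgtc
nucb-1: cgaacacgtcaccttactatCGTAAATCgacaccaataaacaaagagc
fbxa-97: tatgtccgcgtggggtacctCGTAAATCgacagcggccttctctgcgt
The chup-1 stretch lies at chrX:8791994-8792041 on the minus strand, upstream of chup-1, which encodes a cholesterol uptake protein. The F11C7.8 stretch, at chrX:17409035-17409082 on the minus strand, is inside an intron of crb-1, the homologue of the Drosophila polarity gene crumbs, and F11C7.8 itself is an unclassified ncRNA gene, from whose start the summit lay at -4589 bp. The nucb-1 stretch is at chrX:10197490-10197537 on the minus strand, upstream of a gene for a nucleobindin-like protein. The fbxa-97 stretch is at chrX:15045539-15045586 on the plus strand, upstream of a pseudogene. The remaining peak with CGTAAATC had its summit 47 bp inside Y34B4A.2, annotated as similar to the UV radiation resistance-associated gene.

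GCGCAGGG, the core letters of MEX, was likewise near the summit in 5 thresholded X peaks, and those 5 stretches are given in the same way, with the core in capitals.
C15C7.12: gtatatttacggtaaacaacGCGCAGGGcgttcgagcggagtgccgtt
W02H3.t1: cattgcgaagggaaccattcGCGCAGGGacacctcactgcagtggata
Y41G9A.17: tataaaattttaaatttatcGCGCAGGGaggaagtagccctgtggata
ins-39: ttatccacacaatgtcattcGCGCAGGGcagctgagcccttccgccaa
F20B6.9: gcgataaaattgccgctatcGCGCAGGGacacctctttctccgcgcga
The C15C7.12 stretch is at chrX:3159706-3159753 on the minus strand, in the promoter window that the ncRNA gene C15C7.12 shares with gcc-1, which encodes a golgin of the trans-Golgi. The W02H3.t1 stretch, at chrX:11094206-11094253 on the minus strand, is intergenic, with the summit at -1457 bp from that tRNA-Leu gene. The Y41G9A.17 stretch, at chrX:2997103-2997150 on the minus strand, is in an intron of that uncharacterized gene. The ins-39 stretch, at chrX:1345036-1345083 on the plus strand, lies upstream of an insulin-like peptide gene, with the summit at -624 bp. The F20B6.9 stretch, at chrX:4209246-4209293 on the minus strand, is intergenic, with the summit at -1821 bp from an uncharacterized gene. Offsets are counted from the transcript start, negative ones upstream.

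Beside these, 9 thresholded X peaks had their summits at tRNA genes, and the starts of 3 such genes are given. The summits, which are not marked, lay at 20, -38 and 5 bp from these starts, in the order of the lines. Capitals mark the first bases of the tRNA gene and lower case the bases before it.
C33G3.t2: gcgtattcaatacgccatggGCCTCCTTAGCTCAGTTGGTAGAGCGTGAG
F43C9.t1: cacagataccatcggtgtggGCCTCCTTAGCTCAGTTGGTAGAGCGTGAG
T28B4.t1: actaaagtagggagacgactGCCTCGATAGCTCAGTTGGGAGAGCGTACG
C33G3.t2, at chrX:14063989-14064038 on the minus strand, and F43C9.t1, at chrX:4789112-4789161 on the plus strand, are both tRNA-Lys genes and share the bases in capitals, while the bases before them differ. T28B4.t1, at chrX:6593576-6593625 on the plus strand, is a tRNA-Phe gene.

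X held few of the strongest peaks, and among weaker peaks about the share that its coding genes would give. Of the 1704 pooled X peaks, 36 passed the threshold (2.11%, exact 95% interval 1.48% to 2.91%), against 328 of 9803 autosomal peaks (3.35%, 3.00% to 3.72%), and the share over all nuclear pooled peaks was 3.16%. The difference passed Fisher's exact test, two-sided (adjusted p = 0.0108), and X lay below each of the 5 autosomes, which ranged from 2.74% on V to 3.82% on III. X thus held 9.89% of the 364 nuclear thresholded peaks, with 17.7% of the nuclear length (exact binomial test, p = 4.55e-05), 13.7% of the protein-coding genes and 14.8% of the pooled peaks. These tests treat peaks as independent of each other.

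Against the X share of coding genes (13.7%), the shortfall was in the upper part of the list. Against the X share of nuclear length (17.7%), X was lower in every bin of ranks. The interval included that share of length only in the bins of ranks 101 to 390, and after rank 5000 it was 14.8% to 16.6%. Among the 84 nuclear peaks of ranks 1 to 100, X held 1, at the promoter of acl-1 (1.19%, exact interval 0.0301% to 6.46%). It held 10 of 91 in ranks 101 to 200 (11%), 25 of 189 in ranks 201 to 390 (13.2%), 84 of 610 in ranks 391 to 1000 (13.8%), and 15.7% of the peaks after rank 5000. The interval of the first bin lay below the X share of coding genes, those of the next bins down to rank 5000 included it, and that of the last bin lay above it. In a choice made after seeing the data, only thresholded peaks below the median rank of that list were counted as called. These were 25 of 1704 X peaks and 169 of 9803 autosomal peaks (1.47% and 1.72%, Fisher's exact test, adjusted p = 0.617). The stronger thresholded peaks stayed in both totals as not called.

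**Figure D1:**
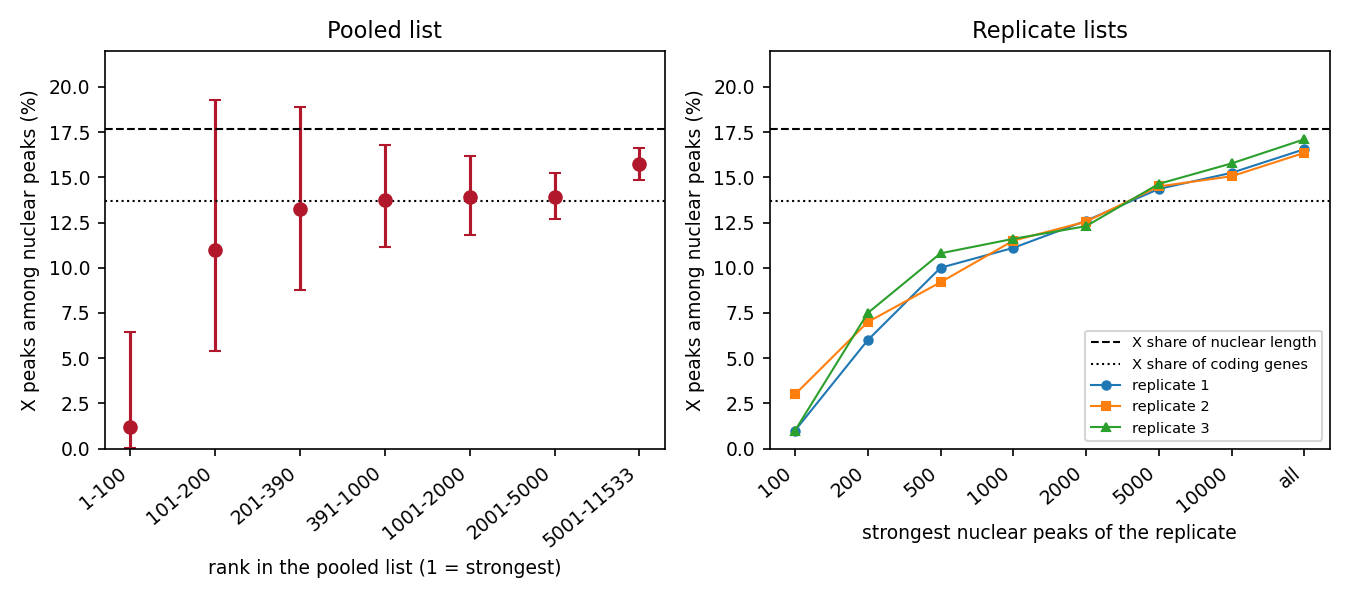
The share of X among nuclear peaks (vertical axis, percent) by rank in the pooled list (left, bars are exact 95% intervals) and among the strongest peaks of each replicate list (right, 1 line per replicate). X held 1.19% of the peaks in ranks 1 to 100 and 13.2% in ranks 201 to 390, and the 3 replicates rose together toward the X share of nuclear length, drawn as a dashed line at 17.7%.

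Each replicate showed the same rise when its own list was ranked. Among the 100 strongest nuclear peaks, X held 1%, 3% and 1% in replicates 1, 2 and 3, and among the 200 strongest 6%, 7% and 7.5%. Among the 1000 strongest it held 11.1%, 11.5% and 11.6%, a mean of 11.4% ± 0.265 (SD, n = 3), and over whole lists 16.6%, 16.4% and 17.1%. The spread between replicates was small beside the distance from the 17.7% of length at 1000 peaks. No test was run on these 3 values, and the replicates share the caller's control.

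The signal of the thresholded X peaks ran from 35.7 to 129 with a median of 47.2, against 35.6 to 901 with a median of 59.7 on autosomes, where the medians of single chromosomes were 53.3 to 72.1. Over all pooled peaks the medians were 12.8 on X and 13.1 on autosomes. In the replicates' own lists the thresholded peaks found there had median signals of 21.6 on X and 29.8 on autosomes in replicate 1, 15.8 and 18.3 in replicate 2, and 15.4 and 21.3 in replicate 3. The X median was the lower in all 3 replicates, at 0.771 ± 0.080 times the autosomal one (SD, n = 3). Just inside the threshold on X were the peaks at F46H5.2 (signal 36.1) and F55G7.5 (35.7), and just outside it those at C53C7.t2 (35.5) and T27A8.8 (34.7).

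All 36 members were found in the list of replicate 1, 34 in that of replicate 2 and 35 in that of replicate 3. A replicate was said to support a member when the member held the summit of one of its strongest peaks, of which 5 were taken for each thresholded peak. All 3 replicates supported 20 of the 36 X peaks (55.6%), against 244 of 328 autosomal peaks (74.4%), a difference that passed narrowly (Fisher's exact test, adjusted p = 0.0382), and the other 16 X peaks had support from a pair of replicates. The call was lost without any one replicate: support from both others was then 63.9% on X and 78% on autosomes without replicate 1 (exact test, adjusted p = 0.0727), 75% and 87.2% without replicate 2 (0.0848), and 72.2% and 81.4% without replicate 3 (0.188). It was also lost among peaks no stronger than the strongest X peak, with 55.6% on X and 67.6% on autosomes (exact test, adjusted p = 0.244).

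**Figure D2:**
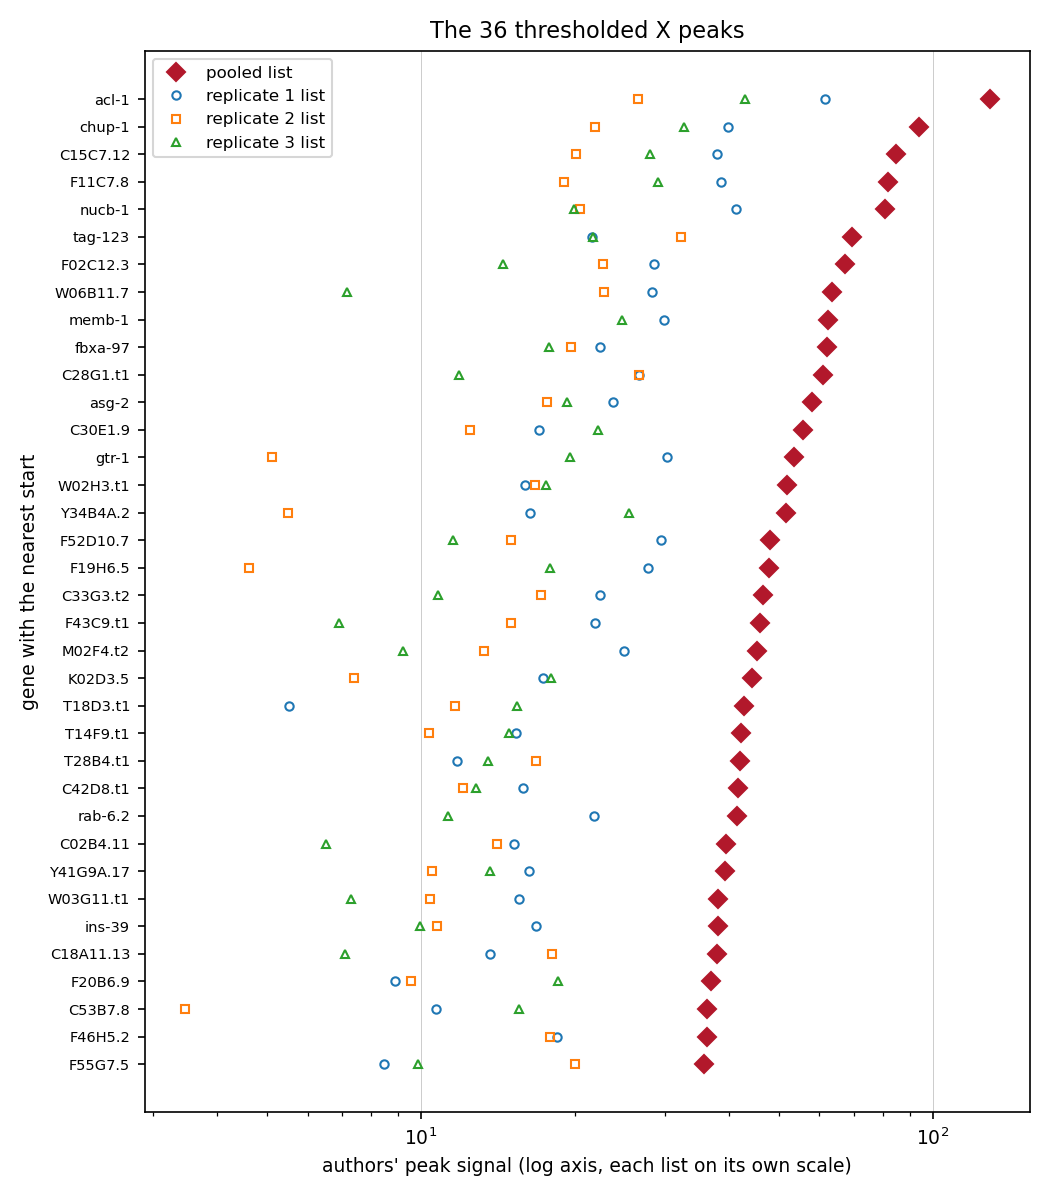
The 36 thresholded X peaks, 1 row each, named by the gene with the nearest transcript start and ordered by signal in the pooled list (diamonds); open symbols are the signals in the 3 replicate lists on a log axis, each list on its own scale. The acl-1 peak is the strongest at 129 in the pooled list, and a missing open symbol means that the replicate's list held no peak there.

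The strongest X peak, at chrX:15849523-15849785, lay at -252 bp from acl-1, which encodes a putative acyltransferase of phospholipid synthesis. Its signal was 129 in the pooled list, where it ranked 84, and 61.5, 26.5 and 42.9 in replicates 1, 2 and 3, where it ranked 83, 117 and 91. It held neither CGTAAA nor GCGCAGGG, and only 22.8% of the 101 bases round its summit were G or C, the lowest share of the 36 X peaks. The bases are given with the summit in a capital.
acl-1: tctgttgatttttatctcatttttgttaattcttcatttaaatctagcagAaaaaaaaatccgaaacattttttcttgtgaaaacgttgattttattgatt
The chup-1 peak had a pooled signal of 93.8 and signals of 39.8, 21.9 and 32.6 in the 3 replicates. The peak shared by C15C7.12 and gcc-1 had 84.6 in the pooled list and 37.9, 20.05 and 27.9 in the replicates. The peak in crb-1 had 81.8 in the pooled list and 38.4, 19.1 and 29 in the replicates. At nucb-1 the pooled signal was 80.6, and 41.3, 20.5 and 19.9 in the replicates. These 5 were the strongest X peaks of the pooled list, and each was among the 205 strongest of every replicate.

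Below them, some peaks differed more between replicates, while that at asg-2 ranked 243, 236 and 212 in replicates 1, 2 and 3. The peak at tag-123, a gene of the transmembrane 9 superfamily (pooled signal 69.4), was strongest in replicate 2, where it ranked 95, and ranked 277 and 188 in replicates 1 and 3. The peak at puf-9, a Pumilio family gene for an RNA-binding protein, with W06B11.7 as the nearest start (63.5), ranked 205 and 141 in replicates 1 and 2 but 2261 in replicate 3. The peaks at memb-1, for a SNARE protein of the Golgi (62.2), and rab-6.2, for a small GTPase (41.4), were missing from the list of replicate 2, and that at F46H5.2, annotated with a protein kinase domain, from the list of replicate 3. The peaks near gtr-1, a gene of the G protein-coupled receptor type (53.5), and F19H6.5 (47.8) ranked 7961 and 10413 in replicate 2 while ranking 186 and 207 in replicate 1.

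Protein-coding genes on X had thresholded peaks at their promoters less often than those on any autosome. A promoter window began 1000 bp before a transcript start and ended 200 bp after it. Such a window held a thresholded summit at 18 of 2731 X genes (0.659%, exact interval 0.391% to 1.04%) and at 381 of 17242 autosomal genes (2.21%, 2.00% to 2.44%), 0.298 times as often (Fisher's exact test, adjusted p = 1.27e-08). The share over all nuclear coding genes was 2.00%, and the autosomes ranged from 1.32% on V to 3.22% on III. Genes that share a window share a peak, so the counts are not fully independent. The call held in all 9 alternatives run for it.

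The distance was smaller when any pooled peak was counted. Then 466 of the 2731 X genes had a promoter peak (17.1%), against 3840 autosomal genes (22.3%), where the autosomes ranged from 15.5% on V to 29.5% on III and the share over all nuclear coding genes was 21.6%. On that count X lay inside the range of the autosomes, and no test was run.

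The 18 X genes were acl-1, chup-1, gcc-1, nucb-1, tag-123, F02C12.3, puf-9, memb-1, C28G1.2, sec-15, asg-2, glr-6, Y34B4A.2, rga-8, ftt-2, rab-6.2, ins-39 and F46H5.2. At F02C12.3, an uncharacterized gene, the signal was 67.3 in the pooled list and 28.5, 22.7 and 14.4 in the replicates. C28G1.2 shared a peak of 61.0 with sec-15, for a subunit of the exocyst, and the tRNA gene C28G1.t1. The peak of 58 between asg-2, for a subunit of the mitochondrial ATP synthase, and glr-6, for an ionotropic glutamate receptor, had signals of 23.7, 17.6 and 19.3 in the replicates. Y34B4A.2 and rga-8 shared a peak of 51.7, which ranked 417, 6578 and 155 in replicates 1, 2 and 3. The peak of ftt-2, which encodes a 14-3-3 protein, had its summit at -614 bp and a signal of 48.0. At the 15 X peaks with a coding window the median distance to the nearest coding start was -224 bp, against -172 bp over 262 autosomal peaks.

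**Figure D3:**
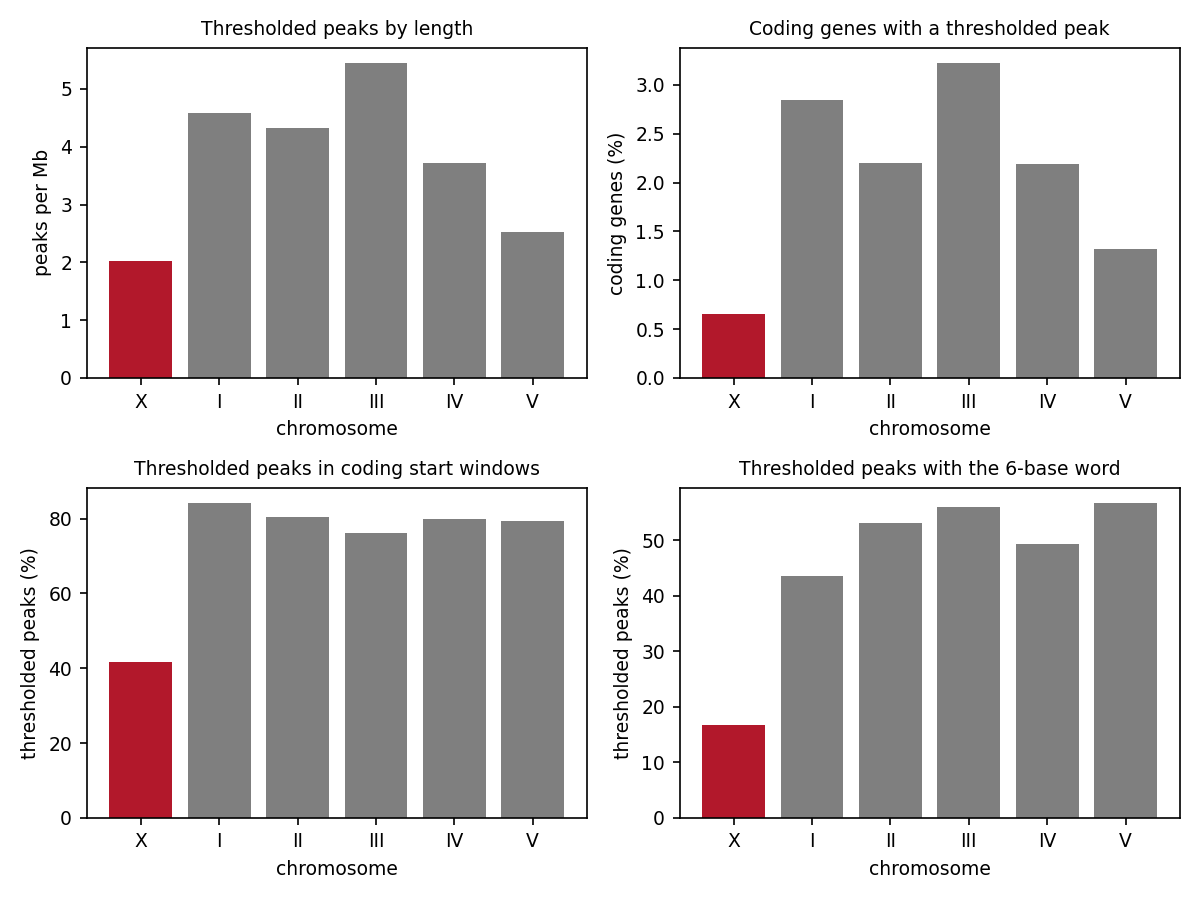
Values for X (red, left) and the 5 autosomes (grey): thresholded peaks per Mb, protein-coding genes with a thresholded promoter peak, thresholded peaks with a summit in a coding start window, and thresholded peaks with CGTAAA within 50 bp of the summit, the last 3 in percent. X is the lowest bar in each panel, at 2.03 peaks per Mb, 0.659%, 41.7% and 16.7%; the bars carry no error.

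The thresholded X peaks also lay at promoters of any kind less often. The summit was in a window of some gene, RNA genes included, in 26 of the 36 X peaks (72.2%, exact interval 54.8% to 85.8%) and in 294 of 328 autosomal peaks (89.6%, 85.8% to 92.7%; Fisher's exact test, adjusted p = 0.0108), with 86.7% to 92.8% on single autosomes. Windows covered 34.8% of X and 34.9% of the autosomes. The call was lost among peaks no stronger than the strongest X peak, where X had 72.2% and autosomes 87.6% (exact test, adjusted p = 0.0548), and when support from replicates 1 and 2 alone was asked for, with 80.8% and 92.5% (0.0757). Over all pooled peaks the shares were 50.9% on X and 48.6% on autosomes and the difference did not pass Fisher's exact test (adjusted p = 0.0848).

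Of the 10 thresholded X peaks outside windows, 7 were intergenic (19.4%, against 4.27% on autosomes), 2 were in introns and 1 was in another exon, that of the ncRNA gene C30E1.9 (signal 55.7). The intergenic ones had gtr-1, W02H3.t1, F19H6.5, K02D3.5, C02B4.11, F20B6.9 and F55G7.5 as the nearest genes, with signals of 35.7 to 53.5. K02D3.5 and C02B4.11 are ncRNA genes, with signals of 44.3 and 39.3, and F55G7.5 is annotated as a membrane-associated protein. Of these 7, W02H3.t1 was supported by all 3 replicates and the others by a pair.

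Few thresholded X peaks lay in the windows of coding starts on both strands. A window was called divergent when the summit lay in the windows of protein-coding starts on both strands. That was so for 3 of 26 X promoter peaks (11.5%, exact interval 2.45% to 30.2%), against 114 of 294 on autosomes (38.8%, 33.2% to 44.6%; Fisher's exact test, adjusted p = 0.0108). That count includes peaks in windows of RNA genes alone, which cannot be divergent by this definition and are more common on X. Among the promoter peaks with a coding window the shares were 3 of 15 on X (20%) and 114 of 262 on autosomes (43.5%), and the difference did not pass (Fisher's exact test, adjusted p = 0.105). The 3 were those of C28G1.2 and sec-15, of asg-2 and glr-6, and of Y34B4A.2 and rga-8. X has fewer coding genes for its length, at 154 per Mb against 209 per Mb on autosomes, and coding windows covered 21.8% of X and 27.2% of the autosomes; the part of this in the difference was not tested.

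CGTAAA was found at X peaks less often than at autosomal ones. The letters had been named at the summits of these same thresholded peaks, most of which are autosomal. Such a choice favours a higher autosomal share, so the tests on these letters are biased toward that side. Counted on either strand and up to 50 bp from the summit, it was present in 6 of 36 thresholded X peaks (16.7%, exact interval 6.37% to 32.8%) and in 169 of 328 autosomal peaks (51.5%, 46.0% to 57.1%), and the difference passed Fisher's exact test (adjusted p = 0.000276). Single autosomes ranged from 43.5% to 56.6%, and windows of the same 101 bases 300 bp away held it in 4.17% on X and 5.18% on autosomes. In the whole sequence CGTAAA occurred 433 times per Mb on X and 458 times per Mb on autosomes, with 430 to 482 per Mb on single autosomes. In the thresholded peaks above the median rank, 5 of 11 X peaks and 119 of 159 autosomal peaks held CGTAAA, and the difference did not pass (45.5% and 74.8%, exact test, adjusted p = 0.119).

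The longer form was scarce on X as a whole. CGTAAATC, which contains CGTAAA, occurred 385 times on X and 5907 times on autosomes, or 21.7 and 71.6 times per Mb, with 56.4 to 95.8 per Mb on single autosomes. It was within 50 bp of a thresholded summit at 5 of the 385 occurrences on X (1.30%) and at 156 of the 5907 on autosomes (2.64%). Of X coding promoters, 81 held it (2.97%), against 1298 on autosomes (7.53%). Of those that held it, 9 of 81 on X (11.1%) and 239 of 1298 on autosomes (18.4%) had a thresholded peak, a difference that did not pass (Fisher's exact test, adjusted p = 0.102). The letters and the summit could lie apart in the window, so these shares do not count peaks at the letters. On X, only the coding windows of chup-1, nucb-1, Y34B4A.2 and rga-8 had the letters within 50 bp of the thresholded summit. Without replicate 1 the shares were 6.17% on X and 15.9% on autosomes (exact test, adjusted p = 0.0249), and without replicate 3 they were 6.17% and 16.1% (0.0264), so that the call turned on which replicates were asked for.

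By rank, the 8 letters lay at the summit of none of 1 X peak and 62 of 83 autosomal peaks in ranks 1 to 100, of 4 of 10 and 39 of 81 in ranks 101 to 200, and of 1 of 25 and 43 of 164 in ranks 201 to 390. Below the threshold they were at 1 of 1668 X summits and 248 of 9475 autosomal summits. The 4 X peaks of ranks 101 to 200 are those of chup-1, F11C7.8, nucb-1 and fbxa-97 whose bases are given at the start.

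**Figure D4:**
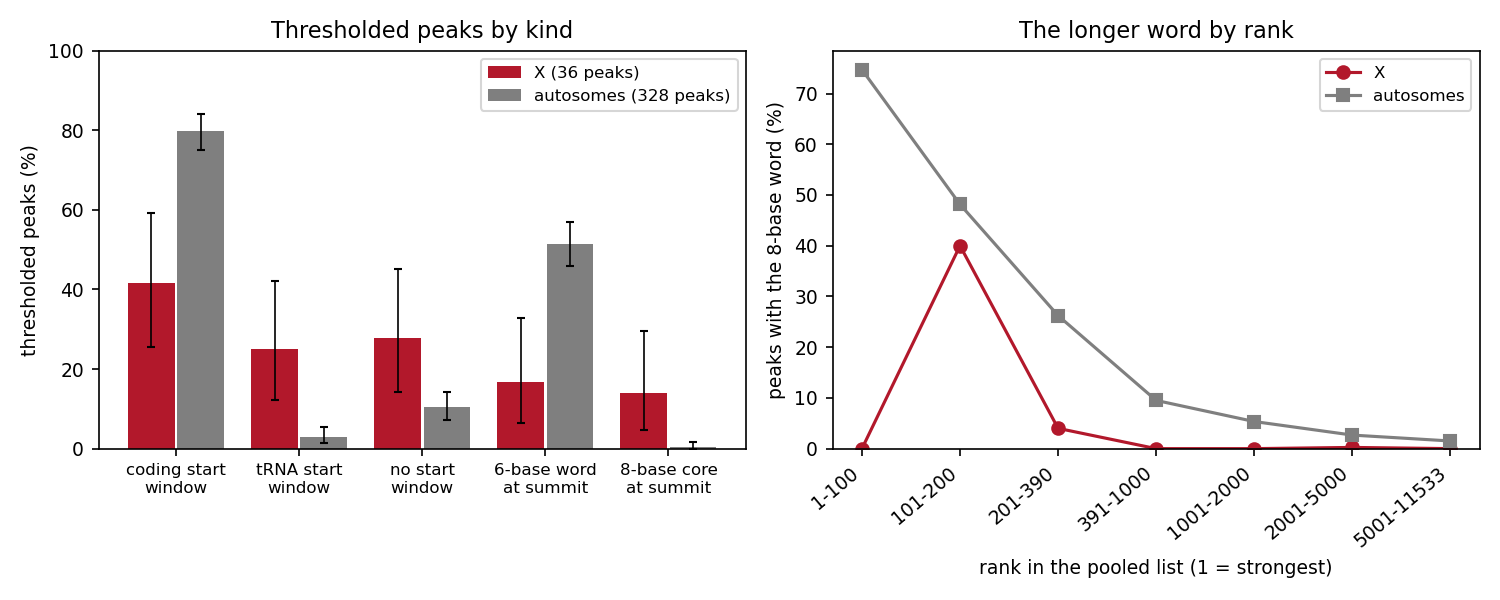
Left: the share of thresholded peaks (percent, bars are exact 95% intervals) on X (red, 36 peaks) and on autosomes (grey, 328 peaks) with a summit in a coding start window, in a tRNA start window or in no start window, with the 6-base word CGTAAA and with the 8-base core GCGCAGGG. Right: the share of peaks with the 8-base word CGTAAATC at the summit by rank, where X reaches 40% in ranks 101 to 200 (4 of 10 peaks) and autosomes 74.7% in ranks 1 to 100.

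The MEX core was found at X peaks more often than at autosomal ones. GCGCAGGG was that close to the summit in 5 of 36 thresholded X peaks (13.9%, exact interval 4.67% to 29.5%) and in 1 of 328 autosomal peaks (0.305%, 0.00772% to 1.69%), and in none of the windows 300 bp away on X or autosomes. Over all pooled peaks it was at 9 of 1704 X summits (0.528%) and 4 of 9803 autosomal summits (0.0408%), with 0.0587% and 0.00510% in the windows beside them. X carried 81 copies of the 8 letters and the autosomes 233, or 4.57 and 2.82 per Mb. Of the 81 on X, 5 were within 50 bp of a thresholded summit (6.17%), and of the 233 on autosomes 1 was (0.429%). These are descriptions and carry no test.

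The 5 peaks with the core were mostly weak, with a median signal of 39.3, and 3 of them lay in no start window, of which 2 were intergenic and 1 was in an intron. The W02H3.t1 peak had a pooled signal of 51.7 and ranked 446, 265 and 244 in the 3 replicates. The Y41G9A.17 peak had 39.3 in the pooled list and ranked 426, 762 and 356. At ins-39 the pooled signal was 38.02 and the ranks were 398, 722 and 758. The F20B6.9 peak, at 36.8, ranked 2003 and 1047 in replicates 1 and 2 and 223 in replicate 3. The C15C7.12 peak, shared with gcc-1, ranked 155, 184 and 146, and was the one that held both GCGCAGGG and CGTAAA.

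The dosage compensation and sex determination genes on X were looked at by themselves. None of the 6 had a thresholded promoter peak and 3 had a pooled one. The peak of sdc-2, whose product brings the complex to X, had a signal of 22.6 and rank 1087. Those of ceh-39 and fox-1, X signal elements that count the X chromosomes in the embryo, had signals of 13.6 and 11.7. Against these 50% stand 17.1% of all X coding genes with a pooled promoter peak. On autosomes 8 of 21 listed genes had one (38.1%), against 22.3% of all coding genes. A count over 6 genes does not set the list apart, and 3 of 6 listed respiratory genes on X had a pooled peak as well.

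X tRNA genes had thresholded peaks about as often as autosomal ones, and there are many of them. Of 276 tRNA genes on X, 10 had a summit in their window (3.62%, exact interval 1.75% to 6.56%), against 10 of 336 on autosomes (2.98%, 1.44% to 5.41%), and 171 (62%) against 185 (55.1%) had any pooled peak. X holds 45.1% of the nuclear tRNA genes. Counted by peak, 9 of 36 thresholded X peaks (25%, exact interval 12.1% to 42.2%) and 10 of 328 autosomal peaks (3.05%, 1.47% to 5.54%) lay in a tRNA window. Over pooled peaks the counts were 161 of 1704 (9.45%) on X and 185 of 9803 (1.89%) on autosomes. tRNA genes exist in near-identical copies, and how reads that map to several copies were treated is not given in the sources used here, so the gene under such a peak is uncertain.

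The summits at the 10 tRNA genes lay between -62 and 43 bp from the start of the tRNA. C28G1.t1, for tRNA-Glu, had the strongest of these peaks, with a signal of 61.0 and replicate signals of 26.7, 26.7 and 11.9. C33G3.t2 and F43C9.t1, for tRNA-Lys, had 46.6 and 45.95, and M02F4.t2 and M02F4.t1, for tRNA-Glu and tRNA-Gly, shared a peak of 45.3 between starts that face away from each other. T18D3.t1, for tRNA-Ala (42.8), ranked 8158 in replicate 1, and 566 and 296 in replicates 2 and 3. T14F9.t1, for tRNA-Asp (42.1), T28B4.t1, for tRNA-Phe (41.99), C42D8.t1, for tRNA-Ile (41.5), and W03G11.t1, for tRNA-Lys (38.1), made up the rest. No peak in a tRNA window held CGTAAA or GCGCAGGG. Directly below the threshold came C53C7.t2, for tRNA-Ser (35.5), the snoRNA gene T27A8.8 (34.7), F42D1.t1, for tRNA-Cys (34.6), rtw-5, for tRNA-Trp (34.3), and C02B4.t1, for tRNA-Ile (33.8).

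Other RNA genes on X are set beside the 0.659% of X coding genes and 2.21% of autosomal ones with a thresholded peak. Of 33 snoRNA genes 1 had such a peak, C53B7.8 (3.03%, signal 36.2, with ranks of 1163, 18719 and 288 in the replicates), against 39 of 313 on autosomes (12.5%). Windows of ncRNA genes held a summit at 14 of 2520 (0.556%) on X and 70 of 5244 (1.33%) on autosomes. None of 74 miRNA genes on X had one, against 4 of 187, and cel-mir-239a had the strongest pooled peak among them (24.4). The pseudogene fbxa-97 (61.9) was the 1 of 178 on X (0.562%), against 0.462% of those on autosomes. Among the X ncRNA genes with a thresholded peak, only C18A11.13 (37.9) had one with no coding or tRNA window. The others shared peaks that were also counted for coding or tRNA genes, so they are not separate peaks.

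Of the listed genes for protein synthesis and respiration, few lie on X. Lists of 2 to 7 genes would hold less than 1 called gene at the 0.659% of all X coding genes, so a count of 0 on X sets no list apart. The counts of 1 on X were not tested. The share over all autosomal coding genes was 2.21%. Of the cytosolic ribosomal protein genes 2 are on X and 79 on autosomes, and 0 and 25 of them had a thresholded promoter peak; rpl-11.2 had a pooled one (26.5). Of the listed respiratory genes, ATP synthase included, 1 of 6 on X had one, asg-2, and 14 of 65 on autosomes. Translation factors had 0 of 3 and 6 of 38, with ife-4 at a pooled signal of 10.9. Genes put in the germline list by symbol alone had 1 of 7, puf-9, and 4 of 69, and whether they act in the germ line was not looked at. No listed gene for a mitochondrial ribosomal protein, an aminoacyl-tRNA synthetase or a proteasome subunit lies on X, while 7 of 70, 3 of 32 and 3 of 33 on autosomes had a peak. The 2 splicing factor genes on X had none, against 1 of 41 on autosomes.

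Genes of neurons, of development and of the large receptor families had hardly any thresholded peaks. The shares over all coding genes were 0.659% on X and 2.21% on autosomes. Of 63 ion channel genes on X, glr-6 had a thresholded peak, in the window it shares with asg-2, against 0 of 194 on autosomes, and 11 had a pooled one. Of 35 neuropeptide genes ins-39 had one, against 0 of 107. The 46 neurotransmitter and neuropeptide receptor genes, 26 homeobox genes, 31 collagen and cuticle genes, 34 chemoreceptor-type genes and 23 nuclear hormone receptor genes on X had none, against 0 of 80, 1 of 67, 2 of 152, 1 of 1276 and 0 of 246 on autosomes. Their strongest pooled peaks were at tyra-3 (17.8), vab-3 (14.8), col-185 (20.3), srv-6 (16.2) and nhr-48 (16.1). The counts of 1 on X and the counts on autosomes were not tested against the shares over all coding genes. With 0.659% of X coding genes called, lists of this size would hold less than 1 called gene each on X. A count of 0 there does not set a list apart. The same holds for 13 muscle genes, led by act-4 (20.1), 11 vitellogenin and intestine genes, led by asp-4 (13.8), 17 F-box, MATH and BTB genes, led by fbxb-58 (33.5), and 3 C-type lectins, led by clec-86 (13.3), all with 0 thresholded peaks.

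The thresholded peaks were spread along the chromosome. In 10 equal parts of X there were 2, 4, 4, 4, 5, 2, 5, 5, 2 and 3 of them from the left end to the right, with 105 to 198 pooled peaks and 199 to 328 coding genes per part. Neighbouring thresholded summits were 26.8 kb to 1081 kb apart, with a median of 386 kb. The tRNA genes were less even, at 12 to 54 per part, and the fifth and the eighth part held the most, with 54 and 53. The outermost part on the left had the fewest pooled peaks.

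**Figure D5:**
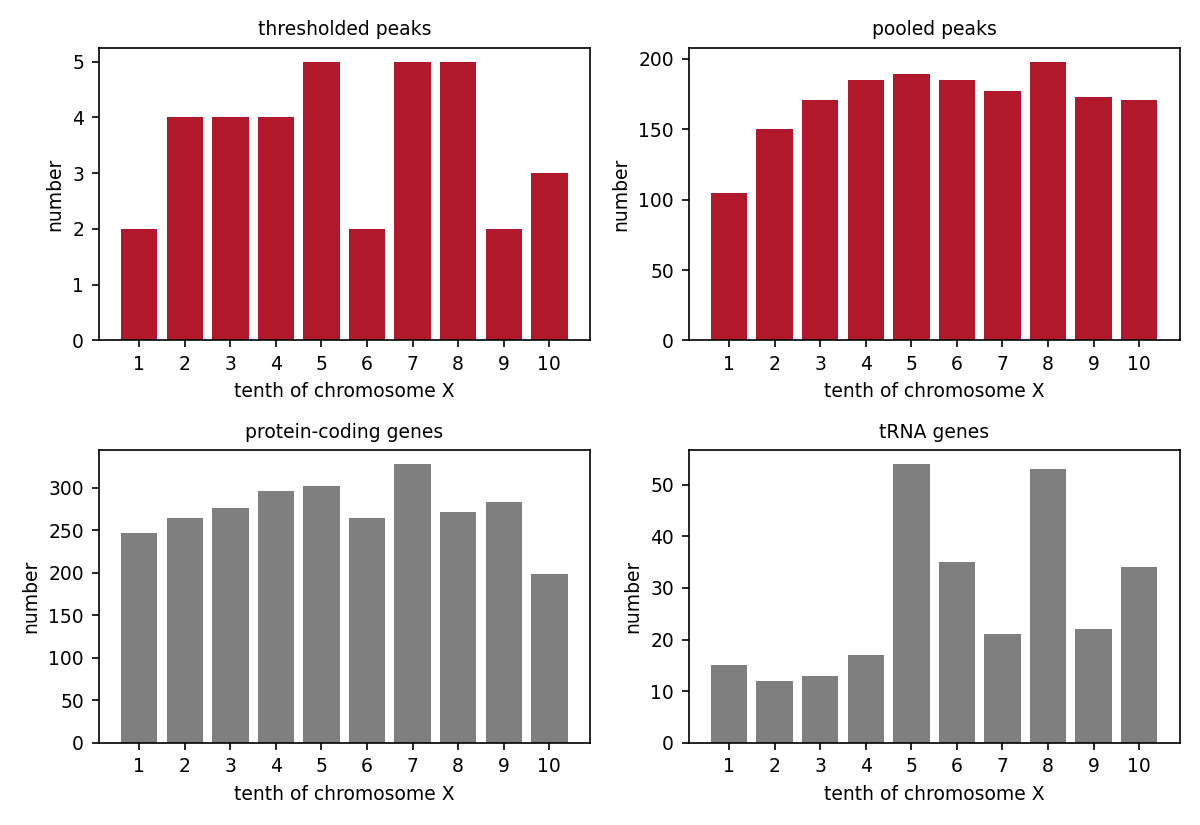
Numbers of thresholded peaks, pooled peaks, protein-coding genes and tRNA genes in 10 equal parts of chromosome X (horizontal axis, from the left end). Thresholded peaks number 2 to 5 in every part, while tRNA genes range from 12 to 54.

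CGTAAA, GCGCAGGG or a tRNA window was present at 19 of 36 X peaks (52.8%, exact interval 35.5% to 69.6%) and 180 of 328 autosomal peaks (54.9%, 49.3% to 60.4%), and the other 17 and 148 had none of them. A coding window without CGTAAA was seen in 11 X peaks (30.6%) and 114 autosomal peaks (34.8%). The 101 bases round the summit had a median G and C content of 48.5% on X and 42.6% on autosomes in thresholded peaks, with 40.6% to 43.6% on single autosomes, and 37.6% and 36.6% in pooled peaks.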

How the data were processed

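Peaks came from the authors' deposited lists for ce11: the pooled list, the thresholded list and 1 list for each of 3 replicates. The deposited description files state that calling used 1 control alignment, and the thresholded list was derived by the irreproducible discovery rate; neither caller nor settings nor cutoff are named in any source used here. The signal used to rank peaks is the deposited strength per peak, without read counts, so depth is unknown and the intervals printed cover counting of peaks or genes only. The authors' control serves all replicates and the pooled list reuses the replicates' reads, so support between them is not independent.

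Coordinates are 1-based. Sequence came from RefSeq and genes from Ensembl release 115, both of WBcel235; piRNA genes were left out, which left 31527 nuclear genes. Symbols of 2773 of 2811 genes without one were filled from RefSeq where it names them. X was compared with the 5 autosomes together by Fisher's exact test, two-sided, Benjamini-Hochberg adjusted over 8 tests with a threshold of 0.05, and shares carry exact Clopper-Pearson 95% intervals. Letters were searched on both strands within 50 bp of the summit. Computations used Python 3.11.15, SciPy 1.17.1 and pandas 2.3.3 and were tested on simulated data. Named genes are the nearest starts of all thresholded X peaks and of the 5 strongest X peaks below the threshold, list members on X with a thresholded peak or else the strongest pooled one, and rcat-1; any further gene named for sharing a window or holding a peak was picked with its values known. Members, the 20 gene lists, letters and tests were chosen with earlier results of these data known, and some list patterns were corrected after the files were read. Alternatives were the thresholded peaks above the median rank, merged peaks, each replicate left out, other windows and flanks, the ce10 lists, and autosomal peaks near rcat-1 left out. For the pooled list, a replicate left out means that support was asked of both other replicates only. Peaks were not called again, and the list stayed the one pooled from all 3.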

Additional observations from a re-analysis of the deposited data

How the results depend on the processing

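Of 76 alternatives, 53 kept the side of the threshold or the value, and none reversed a direction. With the thresholded peaks above the median rank of that list, calls were lost for promoter windows (90.9% on X, 96.9% on autosomes), CGTAAA (45.5%, 74.8%) and support (81.8%, 94.3%). The narrower promoter window gave 66.7% and 82.3% (exact test, adjusted p = 0.0557). With 1000 replicate peaks, support was 55.6% and 67.4%. Among peaks no stronger than the strongest X peak, calls were lost for promoter windows (72.2%), support (55.6%) and divergent windows (11.5%, with 31.3% on autosomes). Among promoter peaks with a coding window, divergent windows were 20% and 43.5%. With the thresholded peaks below the median rank, calls were lost for peaks past the threshold (1.47%), the X share of thresholded peaks (12.9%, exact test, p = 0.0897), promoter windows (64%), support (44%) and divergent windows (12.5%). These last 3 alternatives were chosen after the data were seen, and they and the first one hold fewer peaks than the full comparison. The starts of protein-coding genes alone and the other flanks for GCGCAGGG were also chosen then. The cause of the other lost calls was not tested. With support asked of each pair of replicates in turn, promoter windows on X ranged over 73.9% to 80.8%, support over 63.9% to 75%, and promoters with CGTAAATC over 6.17% to 11.1%. The mean X share in the replicate lists was 10% with 500 peaks, 12.5% with 2000 and 14.5% with 5000. The samples form 1 group, so replicate numbers pair no groups, and the ratio of X to autosomal medians was taken inside each replicate. With 36 thresholded X peaks the intervals on X are wide, and the lists give no read depth.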

Other observations

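The bases next to the 8-letter words at the thresholded X peaks were compared after the sequences had been seen, so the counts are descriptions. GCGCAGGG was preceded by TC in 4 of its 5 occurrences at thresholded X summits and in 19 of all 81 on X (23.5%), against 0 of 1 at thresholded autosomal summits and 6 of 233 on autosomes (2.58%). GTGGATA followed the core after 13 more bases at the W02H3.t1 and Y41G9A.17 peaks, which are the only copies of this arrangement on X, and there was none among the 233 on autosomes. CGTAAATC was followed by GACA in 3 of 5 occurrences at thresholded X summits and in 29 of 385 on X (7.53%), against 67 of 156 and 2032 of 5907 (34.4%) on autosomes.

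Of the 4 pooled X peaks with GCGCAGGG below the threshold, the strongest lay in a coding exon of pks-1, a polyketide synthase gene, with C41A3.6 as the nearest start, and was chosen for naming after its value was seen. Its signal was 32.4 in the pooled list and 19.3, 4.31 and 9.48 in replicates 1, 2 and 3, where it ranked 315, 12174 and 891.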
